A study of Zonotrichia albicollis with 38 samples.

Results

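The 10 genes studied here mark the cells of blood vessels. They were looked up in the count table of a brain RNA-seq series of male white-throated sparrows (Zonotrichia albicollis), and 8 of the 10 were found among its 15111 rows. Of the 8, 7 were found by their symbol and 1, CDH5, by its gene ID in the RefSeq gene table. CLDN5 and ESAM matched no row by symbol or gene ID and were not analysed here. The members are 5 endothelial genes (CDH5, KDR, FLT1, TEK and VWF) and 3 mural genes (RGS5, PDGFRB and ACTA2). They were picked by name as vascular markers, with earlier results of these data known.

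The following roles are background, known mainly from mice and humans. Endothelial cells line the vessel, and in the brain their tight contacts and transporters form the blood-brain barrier. Mural cells wrap that lining: pericytes on capillaries, and smooth muscle cells on arterioles and venules. The endothelium recruits pericytes with the growth factor PDGF-B, and vessels sprout in response to VEGF and mature under angiopoietin signals, so the receptors for these ligands are the usual markers of the vascular cells of a tissue.

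The birds were free-living males caught in the breeding season, on the day following a staged intrusion into their territory. White-striped (WS) birds, 10 in number, carry a rearranged copy of a chromosome (an inversion), and 9 tan-striped (TS) birds do not. Tissue punches of each bird were pooled by region into 1 hypothalamus library (HYP), spanning several nuclei, and 1 library from the medial amygdala (MeA) and some tissue around it, which makes 38 libraries. Age class was uneven between the morphs: 8 WS and 2 TS birds were labelled ASY (after second year), and 2 WS and 7 TS birds SY (second year). The labels also give a stage, and 8 WS and 6 TS birds were in stage E. Birds are the replicates throughout.

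Library totals lay between 7150476 and 14482856 counts and overlapped between the regions. Levels are given in CPM, a gene's count scaled to the size of its library, on one scale for all libraries, without correction for gene length, so levels of different genes are not compared. The region labels held against markers. The summed level of 7 hypothalamic genes was 511 to 969 CPM in HYP and 2.76 to 18.4 CPM in MeA, and that of 9 pallial genes was 663 to 845 CPM in HYP and 2182 to 2685 CPM in MeA. All 8 members were detected in every library. The lowest count of any member in any library was 61, in PDGFRB, and no member had a count of 0.

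Of the 8 members 7 were lower in HYP than in MeA, 4 of them by little, and KDR was not called. ACTA2, the actin of vascular smooth muscle, was 2.39-fold lower in HYP, PDGFRB 1.87-fold and VWF 1.45-fold, while CDH5, FLT1, TEK and RGS5 were 1.09- to 1.19-fold lower. Region was compared within birds with edgeR's quasi-likelihood test, and genes with a Benjamini-Hochberg adjusted p under 0.05 over all 11935 genes tested were called. All 7 calls were in the same direction. The background was high: 80.2% of all genes were called between the regions and 38.2% were called lower in HYP. The median log2 fold change was -0.24 over the members and 0.02 over all genes. In size the members were ordinary, with a median absolute log2 fold change of 0.24 against 0.31 for all genes. In such bulk tissue, fewer cells of a type and less RNA per cell cannot be told apart.

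**Figure D1:**
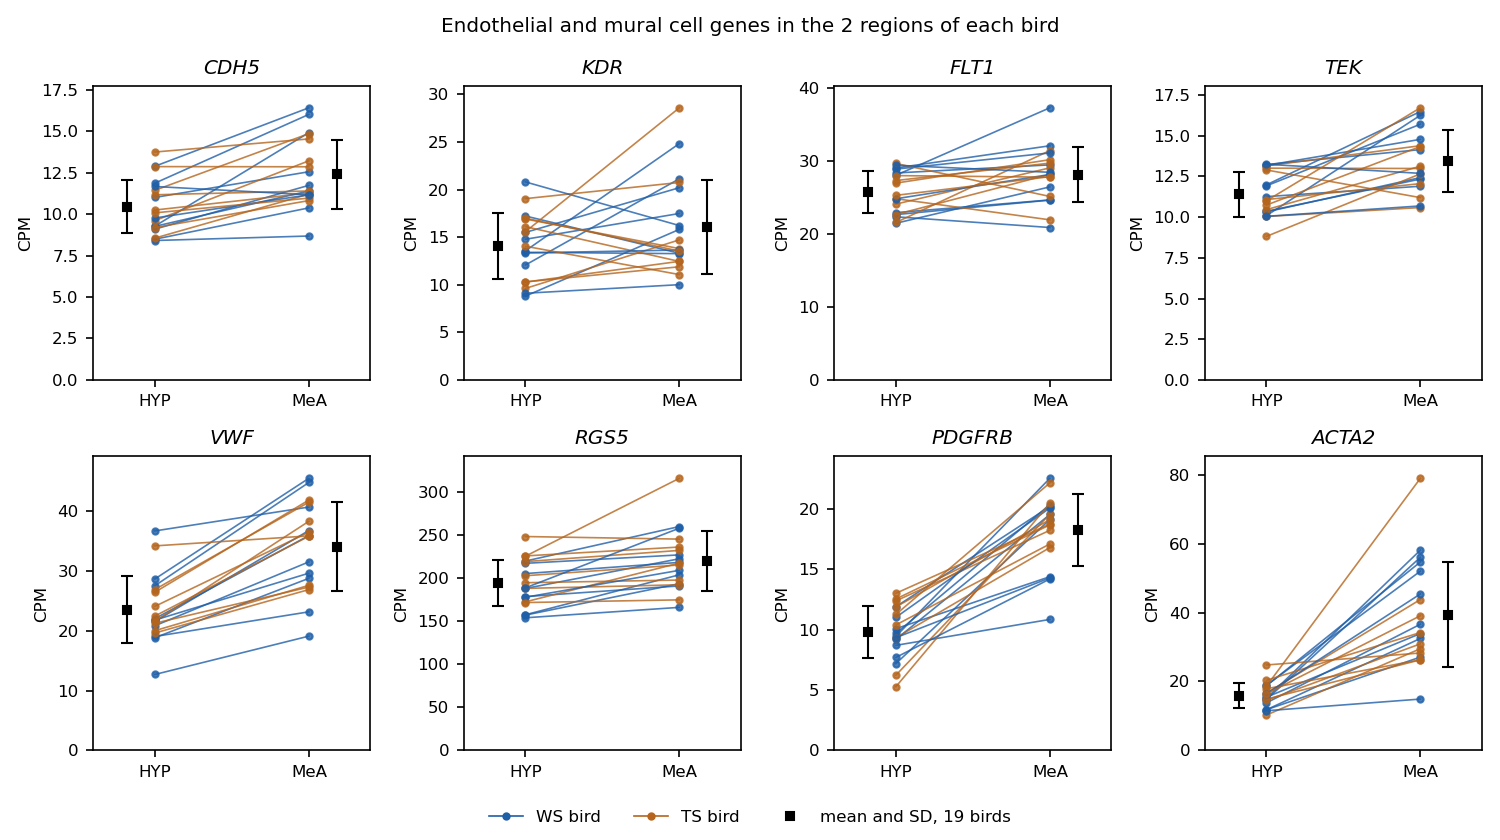
Level of each member in CPM (y axis from 0) in the HYP and MeA library of each bird, with lines joining the 2 libraries of a bird, blue for WS and brown for TS; black squares and bars are the mean and SD over 19 birds. VWF, PDGFRB and ACTA2 rise from HYP to MeA in all 19 birds, while the lines of KDR cross.

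Among the endothelial members, VWF, which codes for the adhesive protein that tethers platelets and is stored in endothelial granules, differed most. Its level ran from 12.7 through a median of 21.8 to 36.7 CPM in HYP, and from 19.1 through 35.9 to 45.5 CPM in MeA. The ranges overlapped, but every one of the 19 birds was lower in HYP. The log2 fold change was -0.54 (SE 0.047, adjusted p = 2.03e-10, edgeR).

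CDH5 codes for VE-cadherin, the cadherin of endothelial junctions. It lay between 8.41 and 13.8 CPM in HYP (median 10.1) and between 8.68 and 16.4 CPM in MeA (median 11.4). Most of both ranges was shared, and 17 of 19 birds were lower in HYP. The log2 fold change was -0.25 (SE 0.048, adjusted p = 5.22e-05, edgeR).

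TEK, also called TIE2, is the endothelial receptor for angiopoietins. Its lowest, median and highest levels were 8.82, 11.1 and 13.3 CPM in HYP and 10.6, 12.99 and 16.7 CPM in MeA. The groups overlapped, with 16 of 19 birds lower in HYP, and the log2 fold change was -0.24 (SE 0.055, adjusted p = 0.00044, edgeR).

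Among the endothelial members the 2 VEGF receptors differed least. FLT1, which binds VEGF-A tightly and signals weakly, ran from 21.5 to 29.7 CPM in HYP (median 25.3) and from 20.9 to 37.3 CPM in MeA (median 28.2). No HYP library lay below the MeA range, and 14 of 19 birds were lower in HYP. The log2 fold change was -0.13 (SE 0.044, adjusted p = 0.0108, edgeR). KDR, the main signalling receptor for VEGF-A, spanned 8.80 to 20.8 CPM in HYP (median 14.1) and 10.0 to 28.6 CPM in MeA (median 13.8). Its difference was not called (log2 fold change -0.18, SE 0.097, adjusted p = 0.0941, edgeR): 12 birds were lower in HYP and 7 higher. The 95% interval of that log2 difference ran from -0.38 to 0.03.

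Of the mural members, RGS5, a regulator of G-protein signalling that marks pericytes, had a narrow difference. It ran from 154 through 189 to 248 CPM in HYP and from 166 through 217 to 316 CPM in MeA. The regions overlapped over most of their range, yet 18 of 19 birds were lower in HYP, and the log2 fold change was -0.17 (SE 0.034, adjusted p = 6.39e-05, edgeR). PDGFRB, the receptor through which pericytes respond to PDGF-B, ran from 5.27 through 9.69 to 13.01 CPM in HYP and from 10.9 through 19.1 to 22.5 CPM in MeA. A single MeA library fell within the HYP range, and all 19 birds were lower in HYP. The log2 fold change was -0.90 (SE 0.088, adjusted p = 1.55e-09, edgeR).

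ACTA2 was the member with the widest gap. It ran from 10.3 through 15.4 to 24.8 CPM in HYP and from 14.9 through 34.2 to 79.0 CPM in MeA. Again 1 MeA library, of the WS bird Sample_23625, fell within the HYP range, and all 19 birds were lower in HYP. The log2 fold change was -1.26 (SE 0.109, adjusted p = 1.88e-10, edgeR). Of all genes tested, 12.1% had a larger absolute difference. The 3 genes that were lower in HYP in every bird compare with a background of 20.1% of genes lower in every bird. No member was free of overlap between the regions, and 10.8% of genes had every HYP library below every MeA library. The count of 7 was the same when 1 bird was left out at a time, and the log2 fold change of ACTA2 then lay between -1.32 and -1.21.

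**Figure D2:**
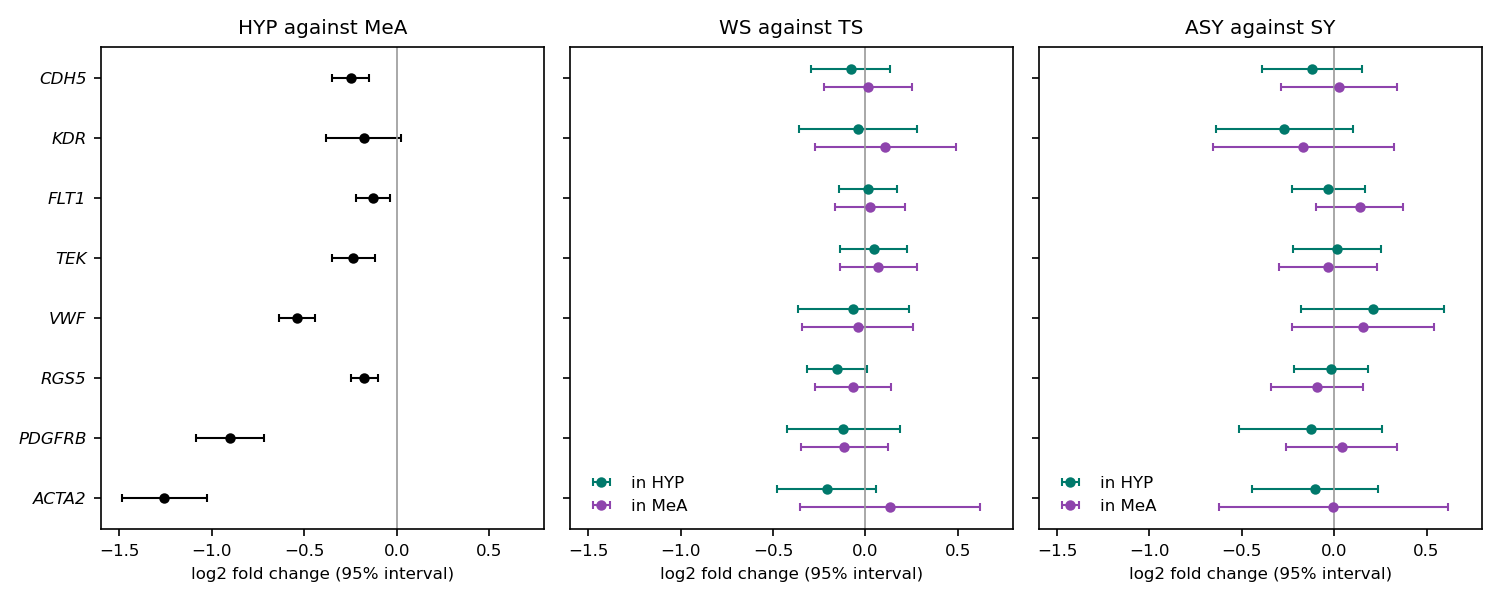
Log2 fold change of each member (points) with its 95% interval (bars) between regions, between morphs and between age classes. All 8 points lie below 0 between the regions, with KDR alone having an interval across 0, while every interval of morph and age class includes 0.

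Markers of other cell types also differed between the regions, beside 38.2% of all genes called lower in HYP and 42% called higher. Of 11 leptomeningeal genes tested, 9 were called lower in HYP and 1 higher, and the summed level of the 13 in the table was 111 to 147 CPM in HYP and 97.8 to 662 CPM in MeA. PDGFRA made up the largest part of the HYP sum, with a median of 72.1 CPM there and 51.7 CPM in MeA. The leptomeningeal gene SLC6A13 had a median of 1.14 CPM in HYP and 31.6 CPM in MeA, and COL1A1 had a count of 0 in 11 HYP and 3 MeA libraries. All 5 erythrocyte genes tested were called lower in HYP, with sums of 37.4 to 64.5 CPM in HYP and 35.1 to 205 CPM in MeA, and none was at 0 in any library. SPTB was the largest part of that sum in HYP, with a median of 42.8 CPM there and 46.0 CPM in MeA. All 9 microglia and macrophage genes tested were also lower in HYP, and the 11 in the table summed to 95.8 to 186 CPM in HYP and 146 to 361 CPM in MeA. Glial and neuronal lists also held more genes lower than higher in HYP. All 4 oligodendrocyte genes were called lower, with a median sum of 1330 CPM in HYP against 3082 CPM in MeA. Of 8 astrocyte genes 6 were lower and 1 higher (4849 against 8164 CPM), and of 8 neuronal genes 5 were lower and 3 higher (6514 against 8044 CPM). The 7 thrombocyte genes in the table summed higher in HYP, at a median of 51.1 against 18.5 CPM, although of the 3 tested 2 were called lower and 1 higher. The platelet receptor gene GP9 had a count of 0 in 12 HYP and 4 MeA libraries. Of 5 ependymal and choroid plexus genes tested 3 were called higher and 2 lower, while the 7 in the table summed to a median of 51.7 CPM in HYP and 149.8 CPM in MeA. AQP1 made up the largest part of the MeA sum, with a median of 129 CPM there and 12.8 CPM in HYP. FOXJ1 went the other way, with medians of 1.16 CPM in MeA and 23.5 CPM in HYP. The part of these other cell types in the vascular differences was not tested. Without the 4 birds whose MeA libraries were the most extreme on the first principal component of MeA, 7 members were again called, a choice made after the data were seen. Because that fit drops birds from both ends of the component, it cannot show the part of other cell types.

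Genes outside the 8 members were read from 5 lists chosen with earlier results of these data known. Of 85 such vascular genes tested, 50 were called lower in HYP and 20 higher, beside the 38.2% and 42% of all genes. The endothelial list leaned lower: 15 of 19 genes were lower in HYP and 1, LMO2, was higher, with a median log2 fold change of -0.43. ECSCR, an endothelial surface protein, ran from 0.0828 to 1.75 CPM in HYP and from 0.96 to 10.9 CPM in MeA (log2 fold change -2.52, SE 0.194, adjusted p = 2.08e-11, edgeR). TAL1, a transcription factor of endothelial and blood cells, ran from 2.97 to 6.10 CPM in HYP and from 4.95 to 43.8 CPM in MeA (log2 fold change -1.91). Those 2 genes stood apart from the list, because SOX18, MMRN2, ADGRL4 and EMCN followed at log2 fold changes of -0.65 to -0.52. All 6 were lower in HYP in every bird, as were 20.1% of all genes. They were named for their large differences in this same comparison, so that agreement is no separate evidence. The call of EMCN was lost in the fit without the bird as a block (adjusted p = 0.253, edgeR).

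TAGLN and GPER1 were the furthest apart in the mural list. Of 15 genes, 10 were lower in HYP and 3 higher. TAGLN, an actin-binding protein of smooth muscle, lay between 2.001 and 9.17 CPM in HYP, and between 15.0 and 121 CPM in MeA, without overlap (log2 fold change -3.12, SE 0.183, adjusted p = 1.22e-13, edgeR). GPER1, a membrane receptor that responds to oestrogens, did not overlap either, with 7.38 to 11.5 CPM in HYP and 20.01 to 66.9 CPM in MeA (log2 fold change -2.01). The cells that GPER1 RNA came from were not measured. DES and LMOD1, which code for desmin and a regulator of muscle actin filaments, and MYH11, the smooth muscle myosin, were lower by -1.76, -1.55 and -1.496 on the log2 scale. TBX18, a transcription factor of mural cells, was lower by -0.91. The pericyte channel gene KCNJ8 was not called (log2 fold change -0.11), and ABCC9, the gene of its partner subunit, was higher in HYP (0.29); both were named after their values were seen, as was LMO2 above.

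**Figure D3:**
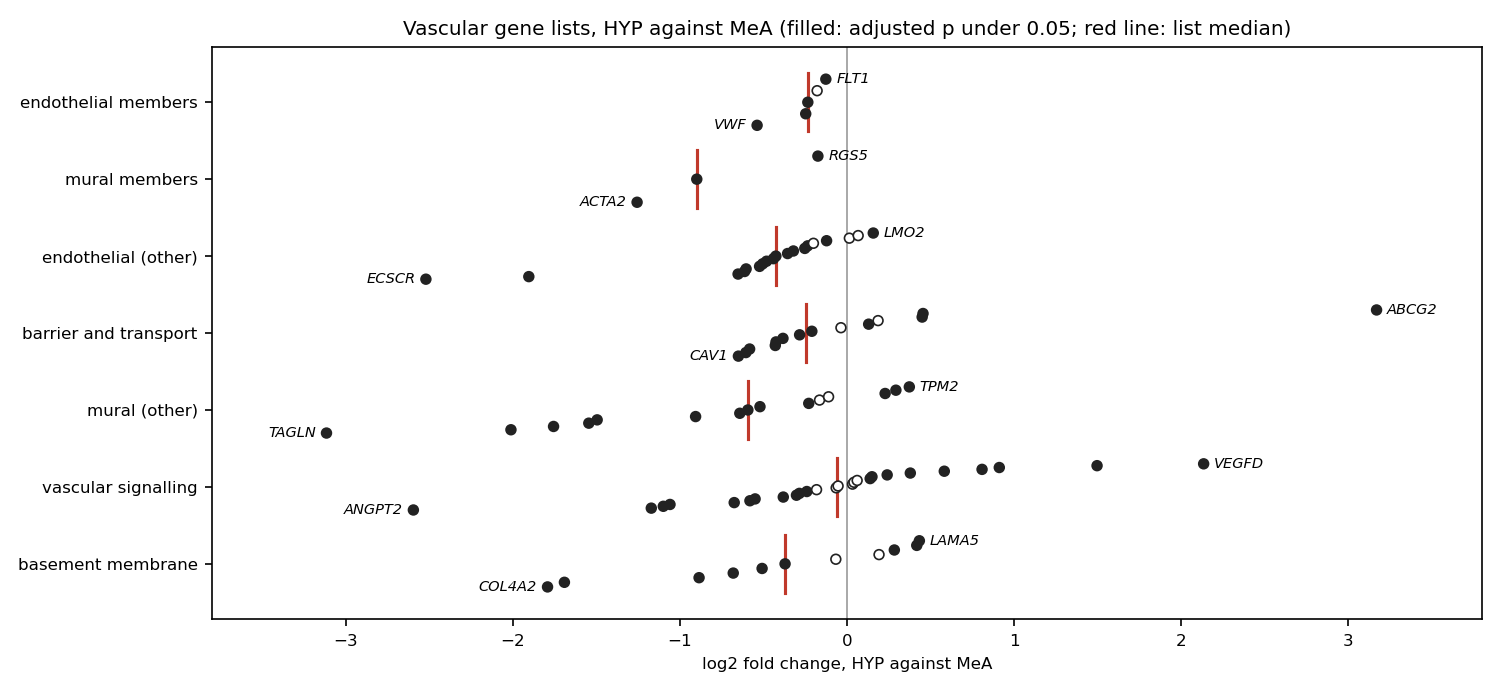
Log2 fold change between HYP and MeA (x axis) of each gene of the vascular lists, filled where the adjusted p was under 0.05 and open otherwise; the red lines are list medians and the lowest and highest gene of each list is named. The mural genes reach from TAGLN at -3.12 to TPM2 at 0.37, and vascular signalling genes lie on both sides of 0.

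Barrier and transport genes went both ways, with 8 of 14 lower in HYP and 4 higher. ABCG2, an efflux transporter, was the one large increase: 1.19 to 3.41 CPM in HYP against 0 to 0.70 CPM in MeA (log2 fold change 3.17, SE 0.235, adjusted p = 1.03e-11, edgeR). The transporter gene SLCO1C1, which carries thyroid hormone at the barrier, the caveolin gene CAV1 and the transferrin receptor TFRC were lower in HYP, at log2 fold changes of -0.61, -0.65 and -0.58. LEF1, a nuclear effector of Wnt signalling, and OCLN, the tight junction protein occludin, were both higher by 0.45.

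Vascular signalling genes were close to even, with 9 of 26 higher and 11 lower in HYP and a median of -0.06. ANGPT2, a ligand of TEK, ran from 20.2 to 39.8 CPM in HYP and from 121 to 217 CPM in MeA, without overlap (log2 fold change -2.60, SE 0.061, adjusted p = 2.52e-21, edgeR). PDGFB, which codes for the ligand of PDGFRB, was also separate, with 12.97 to 20.03 CPM in HYP and 27.9 to 41.4 CPM in MeA (log2 fold change -1.10). VEGFD, a VEGF family ligand, was higher in HYP, at 3.25 to 7.10 CPM against 0 to 4.21 CPM (log2 fold change 2.13, SE 0.246, adjusted p = 2.86e-08, edgeR). NRP2, a co-receptor for VEGF and semaphorins, was higher by 1.496 on the log2 scale, with 141 to 197 CPM in HYP and 28.9 to 104 CPM in MeA. The receptor gene FZD4 and the ligand gene WNT7A, both of Wnt signalling, were lower by -1.17 and -1.06. Many of these genes are also expressed by neurons or glia, and the cells they came from were not measured.

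In the basement membrane list 6 of 11 genes were lower in HYP and 3 higher. The paired collagen IV genes COL4A1 and COL4A2 differed most. COL4A1 spanned 19.6 to 41.7 CPM in HYP and 50.6 to 155 CPM in MeA, and COL4A2 12.01 to 21.7 and 31.4 to 67.7 CPM, both without overlap. Their log2 fold changes were -1.69 and -1.79 (SE 0.078 and 0.088). The laminin genes LAMA2, LAMB1 and LAMA4 were lower by -0.89, -0.68 and -0.51 on that scale, and LAMA5 was higher by 0.43.

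Birds differed from one another in the vascular genes to unequal degrees. ACTA2 in MeA had an SD of 0.561 on the log2 CPM scale over birds, morph means removed, of which counting alone would give 0.0805. Of 2136 genes with a similar mean level, 98.6% had a smaller SD. VWF in HYP (SD 0.344) and RGS5 in HYP (SD 0.187) had wider spreads than 95.3% and 95.1% of genes of their level. KDR in HYP was wider than 93.4% of such genes. TEK was narrower than most genes of its level in both regions (30.6% of genes were narrower still in HYP and 33.2% in MeA), and CDH5 and FLT1 were near the middle.

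In MeA the bird with the most ACTA2, the TS bird Sample_23607, was also first of 19 birds in TAGLN, MYH11 and RGS5. Its MeA library held 79.0 CPM of ACTA2, 121 CPM of TAGLN, 52.5 CPM of MYH11 and 316 CPM of RGS5. The WS bird Sample_23625 held the least ACTA2 and RGS5 in MeA, at 14.9 and 166 CPM, and also the least KDR, at 10.0 CPM. Sample_23607 ranked 8th in the leptomeningeal sum (365 CPM) and 3rd in the erythrocyte sum (155 CPM), and Sample_23625 ranked 15th and 16th (193 and 55.2 CPM).

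The next question was whether the members vary together from bird to bird within a region. Pearson's r was computed for the 28 pairs of members in each region over 19 birds, on log2 CPM with morph means removed, and tested by permutation (two-sided, 100000 resamples) with adjustment over all 56. Most of the 56 coefficients were positive, 45 of them, with a median of 0.25, and 15 had an unadjusted p under 0.05. The share of all gene pairs at that level is not given here. A single pair passed the adjusted Pearson test. CDH5 and FLT1 in HYP had an r of 0.817 and a Spearman's rho of 0.811 (adjusted permutation p = 0.0028 and 0.00224), and r was 0.836 without the 2 birds farthest from the median of CDH5. In MeA the same pair had an r of 0.381 (adjusted permutation p = 0.301), and the difference between the regions was not tested.

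**Figure D4:**
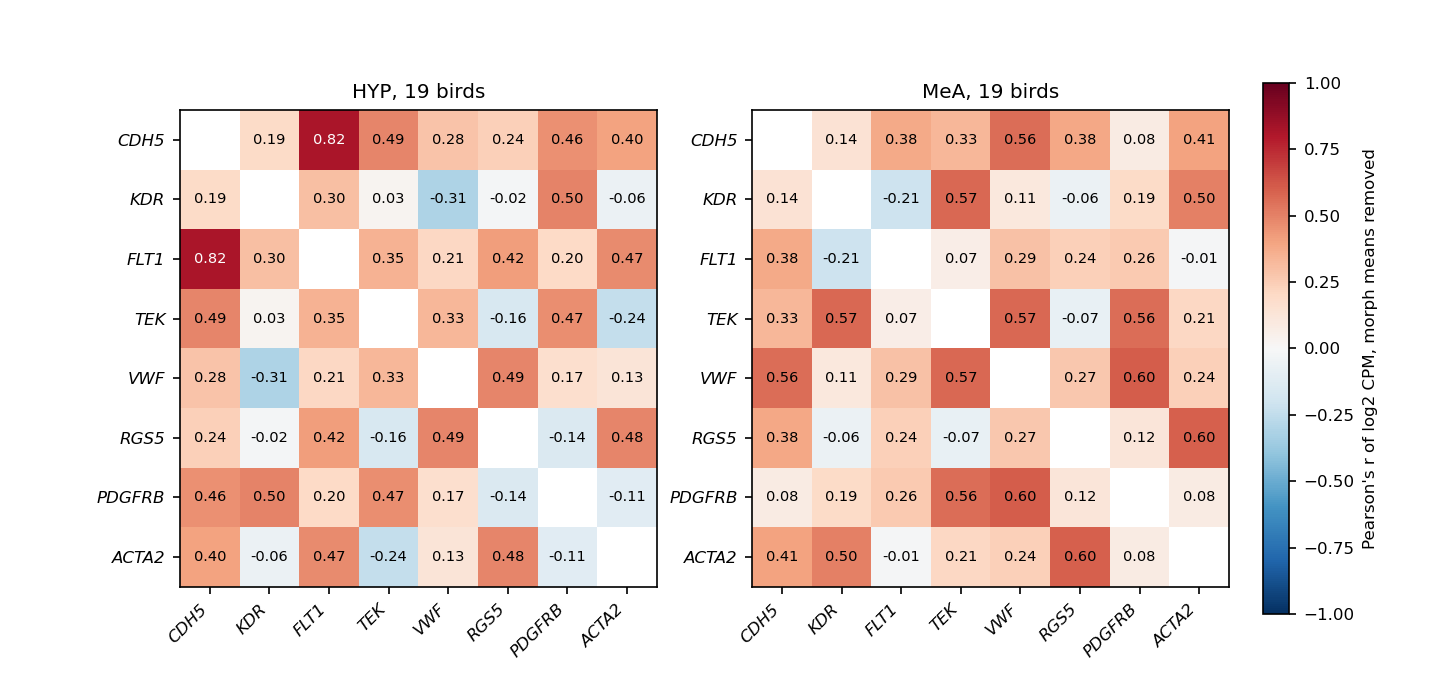
Pearson's r over 19 birds between the members, in HYP and in MeA, on log2 CPM after morph means were removed; red cells are positive and blue cells negative. CDH5 with FLT1 in HYP, at 0.82, is the one pair that passed the adjusted Pearson test, and negative cells are fewer than positive ones in both regions.

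For comparison, each member's r with the other 11433 genes had a median between -0.011 and 0.0129. The share of those genes with a positive r ran from 48.3% (TEK in MeA) to 52.2% (ACTA2 in HYP). An r over 0.5 was reached by 0.805% (TEK in HYP) to 8.2% (KDR in MeA) of them. Of the 7 other members in HYP, 1 reached it for CDH5, 1 for FLT1, and 0 for each remaining member. In MeA between 0 (for FLT1) and 3 (for TEK and for VWF) of the 7 did. With the 7 other members the median r of CDH5 was 0.404 in HYP and 0.381 in MeA, and all 7 were positive in each. KDR had the lowest median in both, 0.0305 in HYP and 0.142 in MeA. Pairs of endothelial genes had a median r of 0.293 in HYP and 0.313 in MeA, and endothelial genes paired with mural genes 0.242 and 0.241. The 3 pairs of mural genes had a median r of -0.114 in HYP, where 1 was positive, and 0.118 in MeA, where all 3 were. The coefficients are descriptions, since the points of a region share their libraries and scaling.

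In MeA no pair passed the adjusted Pearson test (lowest adjusted permutation p = 0.109), and 7 had an unadjusted p under 0.05. VWF with PDGFRB had the highest coefficient there (r = 0.604, rho = 0.691), and its rank correlation passed the adjustment (adjusted permutation p = 0.0451). RGS5 with ACTA2 had an r of 0.599, which was 0.195 without the 2 birds farthest from the median of RGS5, so that relation rested on those birds. KDR with TEK (0.575) and TEK with VWF (0.571) fell to 0.349 and 0.452 in the same way.

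Measures of the libraries moved with 3 members in MeA. Among 144 correlations of members with library totals and summed markers of other cell types, 3 passed the adjusted p, all in MeA. CDH5 was higher in larger libraries (r = 0.717, rho = 0.709, adjusted permutation p = 0.025), KDR rose with the leptomeningeal sum (r = 0.725, rho = 0.726, adjusted permutation p = 0.025), and TEK with the thrombocyte sum (r = 0.756, rho = 0.765, adjusted permutation p = 0.025). Without the 2 farthest birds these r were 0.517, 0.711 and 0.815. ACTA2 in MeA had its highest r with the astrocyte sum (0.526, adjusted permutation p = 0.251). Its r was 0.451 with the leptomeningeal sum (adjusted permutation p = 0.402) and 0.497 with the erythrocyte sum (adjusted permutation p = 0.335). KDR in MeA had a negative r with the oligodendrocyte sum (-0.596, adjusted permutation p = 0.141) and the neuronal sum (-0.57, adjusted permutation p = 0.173). With the erythrocyte sum in MeA, r was 0.673 for KDR, 0.628 for TEK, 0.55 for VWF and 0.472 for CDH5, but 0.00769 for FLT1. None of these passed the adjusted p, but KDR with the erythrocyte sum lay at the limit (adjusted permutation p = 0.05). For that sum the adjusted permutation p was 0.105 for TEK, 0.216 for VWF and 0.399 for CDH5. The part of these measures in the members' common variation was not tested.

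Levels in the 2 regions of a bird were correlated, past the adjusted p, for 3 of the 8 members and for 26% of all genes. VWF had an r of 0.814 between the HYP and MeA libraries of the 19 birds (rho = 0.847), RGS5 of 0.741 (rho = 0.846) and CDH5 of 0.669 (rho = 0.649). The adjusted permutation p-values, over all 11434 genes tested in both regions, were 0.00132, 0.00346 and 0.0136. Without the 2 birds farthest from the median the coefficients were 0.749, 0.707 and 0.542. Sample_23710, a WS bird, had the least VWF in both regions, with 12.7 CPM in HYP and 19.1 CPM in MeA. Sample_23625 had the least RGS5 in both, at 154 and 166 CPM.

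The other 5 members were not called in this test. Their r was 0.452 for ACTA2, 0.428 for FLT1, 0.318 for KDR, 0.221 for TEK and 0.0596 for PDGFRB. Over all genes the median r was 0.38, above that of KDR, TEK and PDGFRB, and 88.7% of coefficients were positive, so 3 of 8 members is not far from the background share. VWF had a coefficient that 3.32% of genes reached, RGS5 one that 7.69% reached and CDH5 one that 13.7% reached.

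**Figure D5:**
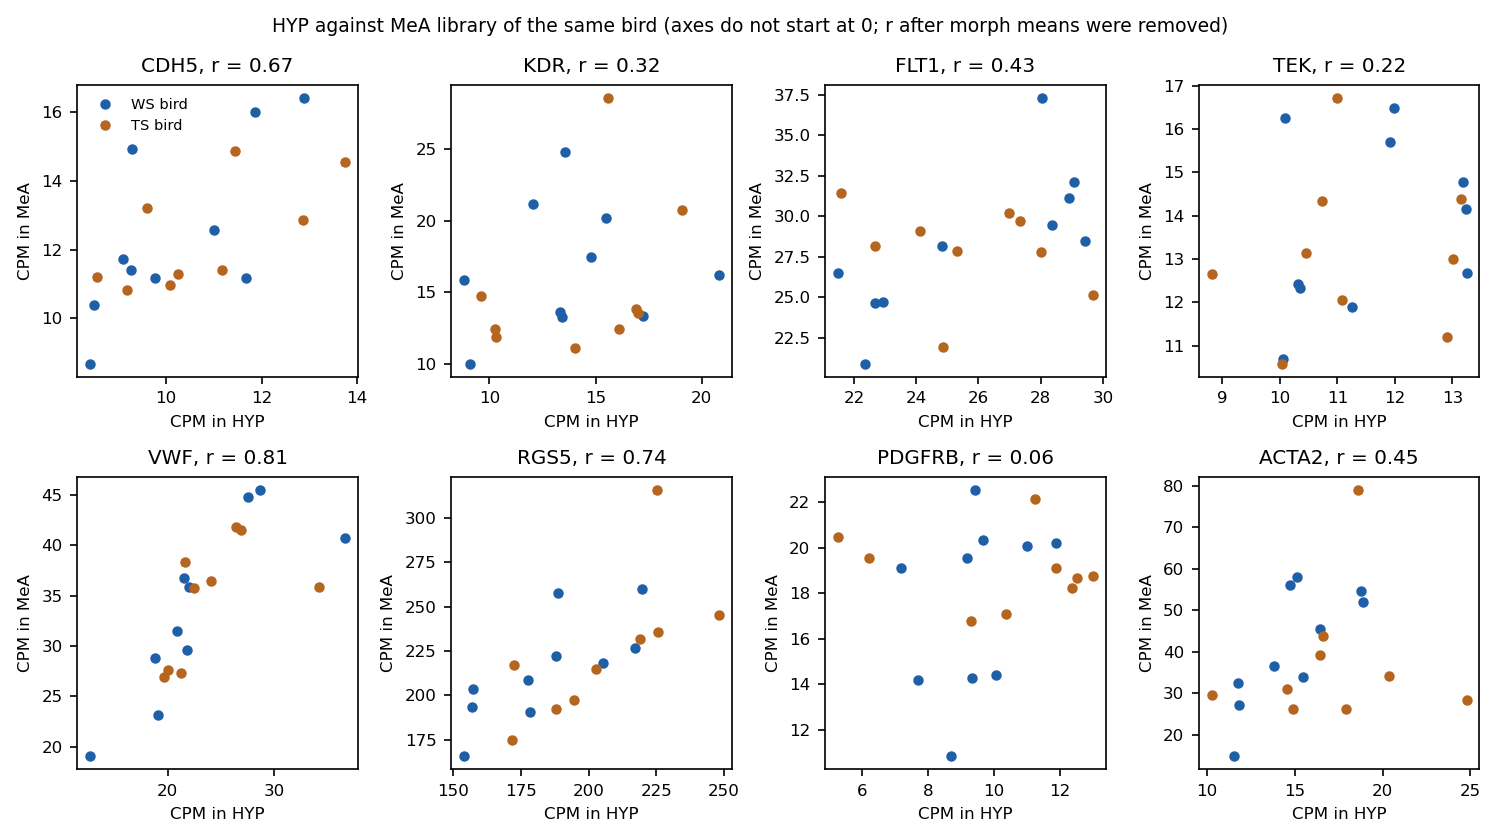
Level of each member in MeA (y axis, CPM) against its level in HYP (x axis, CPM), 1 point per bird, blue for WS and brown for TS; the axes do not start at 0. VWF, with an r of 0.81, and RGS5, with 0.74, line up across the birds, while PDGFRB, with 0.06, does not.

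Genes whose pattern over birds was most like that of a member were ranked by the smaller of their r in HYP and in MeA. CLDN5, meant as the endothelial reference, matched no row, and CDH5 took its place once the files had been read. The 10 genes most like CDH5, of 11433, were TMBIM6, LOC102062267, EPRS, LOC102073351, MMRN2, VCL, SSH2, AGO4, GALNT12 and DDX27, with a smaller r of 0.492 to 0.586. MMRN2, an endothelial matrix protein, ranked 5th (0.531), and the endothelial genes PODXL and ADGRF5 ranked 12th and 14th. The other endothelial genes ranked were spread from 30th (PECAM1) to 7723rd (LMO2, -0.208), with KDR at 1309th (0.142). Among the members the mural gene ACTA2 was the most like CDH5, at 57th (0.404), ahead of FLT1 at 83rd (0.381). The 10 genes most like RGS5 were LRWD1, ITIH5, MECOM, SLC10A4, HDGFL2, ADGRF5, CRIP1, POLE, IGFBP1 and RABGAP1, with a smaller r of 0.50 to 0.594. ACTA2 ranked 16th for RGS5 (0.485), while PDGFRB, the remaining mural member, ranked 6446th (-0.144). No test was made of these ranks.

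No member passed the test between the morphs. In HYP, 0 of 8 members were called between WS and TS, none had an unadjusted p under 0.05, and DESeq2 called 0. Over all genes in HYP 0.796% were called and 7.59% had an unadjusted p under 0.05. RGS5 came nearest. It was 154 to 220 CPM in WS birds (median 183) and 172 to 248 CPM in TS birds (median 203) of HYP, which overlap over most of their range, with a log2 fold change of -0.16 (SE 0.077, unadjusted edgeR p = 0.0549, adjusted p = 0.672). ACTA2 in HYP was 11.5 to 18.9 CPM in WS birds (median 14.9) and 10.3 to 24.8 CPM in TS birds (median 16.6), with a log2 fold change of -0.21 (SE 0.128).

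In MeA, 0 of 8 members were called between the morphs, 0 had an unadjusted p under 0.05 and DESeq2 called 0, beside 0.523% of all genes called by edgeR and 8.85% at an unadjusted p under 0.05. ACTA2 was 14.9 to 58.1 CPM in WS birds of MeA (median 41.0) and 26.3 to 79.0 CPM in TS birds (median 30.9), the TS range lying within the WS range but for Sample_23607. Its log2 fold change was 0.13 (SE 0.231). VWF was 19.1 to 45.5 CPM in WS birds (median 33.7) and 26.9 to 41.8 CPM in TS birds (median 35.9), wholly within the WS range, with a log2 fold change of -0.04 (SE 0.142). The other members had log2 fold changes between WS and TS of -0.12 to 0.04 in HYP and -0.11 to 0.11 in MeA. The 95% intervals of the 8 members reached from -0.48 to 0.28 in HYP and from -0.35 to 0.62 in MeA, so that differences up to 1.39-fold in HYP and 1.54-fold in MeA lie within them.

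Nor did any member pass the test of the difference between the 2 regions in the morph effect. The interaction called 0 of 8 members, with none at an unadjusted p under 0.05 and 0 called by DESeq2, beside 0.0245% of all genes called and 10.5% at an unadjusted p under 0.05. The widest was ACTA2, with a log2 morph difference in HYP minus that in MeA of -0.34 (SE 0.209, unadjusted edgeR p = 0.121).

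None of the 8 members is placed on the chromosome of the inversion, which in the RefSeq gene table holds all 4 genes used to identify it, NTPCR, EPM2A, VIP and ESR1. Among the 88 other vascular genes found, 11 are on that chromosome, and 10 of them were tested between the morphs in each region. In HYP 0 were called (3 at an unadjusted p under 0.05) and in MeA 0 (1 at that level). The share over all genes of that chromosome is not given here, so these counts cannot be called low or high for it. Of all listed vascular genes outside the members, 83 were tested between the morphs in HYP. Among them 11 had an unadjusted edgeR p under 0.05, beside 7.59% of all genes. Of the 83, 1 was called by edgeR and 1 by DESeq2. It was CAV2, a caveolin gene on another chromosome, at 14.8 to 23.3 CPM in WS birds (median 18.4) and 19.4 to 27.6 CPM in TS birds (median 24.5). The ranges overlapped, and the log2 fold change was -0.37 (SE 0.088, adjusted p = 0.0416, edgeR). It was called in 6 of 19 fits that leave out 1 bird, and the adjusted p was 0.0816 with age class in the model, where the log2 fold change was -0.44. Over all 25 alternatives that value lay between -0.44 and -0.34, and the adjusted p between 0.0069 and 0.317. In MeA 0 of 84 were called by edgeR, with 6 at an unadjusted p under 0.05, and 1, PDGFB, by DESeq2 (log2 fold change 0.24, adjusted p = 0.0409); edgeR gave PDGFB an adjusted p of 0.137.

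Between ASY and SY birds, with morph in the model, 0 of 8 members were called in HYP and 0 in MeA, none had an unadjusted p under 0.05 in either region, and DESeq2 called 0 in both. The background was 0% of genes in HYP and 0% in MeA, so that no gene at all passed, with 4.71% in HYP and 3.58% in MeA at an unadjusted p under 0.05. KDR in HYP had the largest difference. It was 8.80 to 17.2 CPM in ASY birds (median 13.4) and 9.61 to 20.8 CPM in SY birds (median 15.6), overlapping over most of the range, with a log2 fold change of -0.27 (SE 0.176, unadjusted edgeR p = 0.14). VWF was 18.8 to 36.7 CPM in ASY birds of HYP (median 21.9) and 12.7 to 34.2 CPM in SY birds (median 21.6), with a log2 fold change of 0.21 (SE 0.182). The intervals were wide, from -0.64 to 0.59 in HYP and from -0.66 to 0.61 in MeA, and 4 birds, the 2 TS birds of class ASY and the 2 WS birds of class SY, are all that sets age class apart from morph.

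The test of the difference between regions in the age effect gave 0 of 8 members called, 0 at an unadjusted p under 0.05, 0 called by DESeq2, and 0% of all genes called, with 4.07% of them at an unadjusted p under 0.05. The nearest was FLT1, with a log2 age difference in HYP minus that in MeA of -0.18 (SE 0.106, unadjusted edgeR p = 0.114).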

How the data were processed

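The deposited table holds read counts per gene for 38 libraries of 19 birds, 7150476 to 14482856 counts each. Per the submitters' processing notes, Novoalign, SAMtools, GATK, STAR, HTSeq and DESeq2 were used. The sources used here give neither versions nor genome build. Another 2 deposited tables, made by the authors for each region, hold variance-stabilized values on a log2-like scale and served as an alternative. The 2 columns of a bird with no listed sample were not used. Antisense and overlapping genes could share reads, because strand use in counting is not stated.

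The test was edgeR's quasi-likelihood test (version 4.0.16, R 4.3.3, TMM scaling, filterByExpr) on the counts of all genes, at a Benjamini-Hochberg adjusted p under 0.05. Region was fitted with the bird as a block, since both libraries of a bird carry its band number: the deviations of all 19 birds correlated most with their own other region (r = 0.281 to 0.473, against at most 0.158 with another bird). Morph was fitted within each region, and age class with morph as a term. SE is the size of the log2 fold change divided by √F, and the 95% intervals use t quantiles. Correlations used log2 CPM (prior count 2), two-sided permutation with 100000 resamples (SciPy 1.17.1, smallest p 1e-05). The correlation between regions was adjusted over all genes instead of over the members alone as first planned.

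Replicate libraries differed by more than counting noise (chi-square per degree of freedom 5.39 to 37.4 over 162 pairs). Alternatives were DESeq2 1.42.0, RLE size factors, a filter of 10 counts in all, birds of stage E alone, age class as a covariate or no morph term, no bird block, each bird left out, and correlations without morph means removed or on the variance-stabilized values. The members, gene lists and tests were chosen with earlier results of these data known. In the lists, up to 6 called genes with the largest absolute log2 fold change were named per comparison, and for likeness the top 10.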

Additional observations from a re-analysis of the deposited data

Results flagged for a closer look

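In 32 groups of a member, a region and a morph, 3 had a library far from the rest of its group, where chance gives about 1 in 20 groups. The measure was the gap to the nearest bird as a share of the group's range, with a limit of 0.493 for 9 birds. VWF (0.501) and RGS5 (0.5) were just past that limit, and ACTA2 was at 0.668. All 3 were in TS groups, and those of RGS5 and ACTA2 were the same library. VWF in HYP was 34.2 CPM in Sample_23620, with the next TS bird at 26.9 CPM; the same bird held 35.9 CPM of VWF in MeA, in the middle of the range there. RGS5 in MeA was 315.8 CPM in Sample_23607, with the next TS bird at 245.2 CPM. ACTA2 in MeA was 79.0 CPM in that same library, with the next at 43.8 CPM, and TAGLN and MYH11 were also highest there. Without Sample_23607 the log2 fold change of ACTA2 between the morphs in MeA was 0.35 (adjusted p = 0.537, edgeR) in place of 0.13, and neither was called.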

How the results depend on the processing

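The 7 members called between the regions were 7 under each of the 24 alternatives, with the same directions, and no member was called by morph, age class or their interaction with region under any setting run. Without the replicate block (an unpaired fit), 7 were called between regions, 0 in the interactions, and the paired value of PDGFRB for morph by region (0.05) became -0.005036. The remaining changes of sign were in log2 fold changes that were never called, and the cause was not tested. With age class as a covariate, WS against TS was 0.1051 for KDR in HYP, and -0.001515 for CDH5 and -0.05923 for FLT1 in MeA. In birds of stage E alone, WS against TS was -0.04667 for TEK in HYP, and -0.05161 for FLT1 and -0.00344 for TEK in MeA; ASY against SY was 0.04329 for PDGFRB and 0.04813 for ACTA2 in HYP, and -0.0467 for PDGFRB and 0.04457 for ACTA2 in MeA. Without the morph term, ASY against SY in MeA was 0.01995 for TEK, -0.03994 for PDGFRB and 0.07477 for ACTA2. Without the 4 birds at the ends of the MeA axis, chosen after seeing the data, WS against TS was 0.1007 for KDR in HYP and -0.03443 for CDH5 in MeA, ASY against SY in MeA was -0.002725 for CDH5 and 0.001825 for ACTA2, and FLT1 for morph by region was 0.01936.

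With 1 bird left out at a time, uncalled values crossed 0 within these ranges. WS against TS in HYP ran from -0.1209 to 0.01887 for KDR, -0.01503 to 0.04154 for FLT1 and -0.1638 to 0.01578 for VWF. In MeA it ran from -0.04258 to 0.06109 for CDH5, -0.02938 to 0.06362 for FLT1, -0.1049 to 0.02401 for VWF and -0.1095 to 0.007952 for RGS5. ASY against SY in HYP ran from -0.1077 to 0.03251 for FLT1, -0.05434 to 0.1363 for TEK, -0.07285 to 0.03238 for RGS5 and -0.3322 to 0.08562 for PDGFRB. In MeA it ran from -0.06073 to 0.1019 for CDH5, -0.1598 to 0.0524 for TEK, -0.03915 to 0.3086 for VWF, -0.04478 to 0.1365 for PDGFRB and -0.09389 to 0.1412 for ACTA2. Morph by region ran from -0.05016 to 0.0389 for FLT1, -0.07295 to 0.03126 for TEK, -0.07416 to 0.03777 for VWF and -0.06662 to 0.1026 for PDGFRB. Age class by region ran from -0.3162 to 0.08236 for KDR, -0.1223 to 0.1398 for TEK, -0.0084 to 0.1242 for VWF and -0.4078 to 0.07762 for PDGFRB.

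Of the lists, the barrier and transport count by morph in HYP, which was 1 (CAV2), was 0 in birds of stage E alone and 0 with age class as a covariate, and 0 to 1 with 1 bird left out. The vascular signalling count by morph in MeA was 1 by DESeq2 and 0 to 1 with 1 bird left out (PDGFB, without Sample_23604), and the basement membrane count for morph by region 0 to 1 (LAMA4, without Sample_23705). CDH5 with FLT1 in HYP and the 3 members that passed between regions were also called without removing morph means and on the variance-stabilized values. Morph, age class and stage are unevenly combined, and members with about 100 counts a library carry a counting error near 0.14 on the log2 scale.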

Other observations

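EMCN, which codes for the endothelial sialomucin endomucin, was far higher in one bird than in the others, in both regions. The TS bird Sample_23608 held 104.9 CPM in HYP (1085 counts) and 108.0 CPM in MeA (900 counts). The other 18 birds lay between 8.09 and 13.6 CPM in HYP and between 11.5 and 18.5 CPM in MeA. The bird was thus 10.2 times the median of the others in HYP and 6.97 times in MeA. None of the 8 members was set apart in that bird in this way: its CDH5 was 11.3 CPM in MeA and its VWF 27.6 CPM. Of 11318 genes with a median of at least 1 CPM in both regions, 9 had a single bird at 5 times the median of the others or more in both regions, and EMCN was the one of them in which that bird was Sample_23608. The gene and the limits of 5 and 1 were chosen after the values were seen, and no test was made.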
